A study of Homo sapiens with 4 samples.

Results

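Of the 15141 SS18::SSX CUT&RUN peaks of DMSO-treated HSSY II cells, 3057 (20.2%) lay between genes and carried no WDR5 peak. These sites were selected on measured values, namely the SS18::SSX and WDR5 peak lists of the DMSO libraries. A peak was taken when it shared no base with any of the 35605 WDR5 DMSO peaks and its centre lay outside every protein-coding and lncRNA gene body of GENCODE release 44 (hg38) and outside the window from 1000 bp upstream to 100 bp downstream of every transcription start site (TSS). The absence of WDR5 and the intergenic position are therefore the rule and not a result.

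HSSY II is an established synovial sarcoma line that carries the SS18::SSX1 fusion. The cells received DMSO (the vehicle) or 2.5 µM MS67 for 4 days, and SS18::SSX and WDR5 were each profiled by CUT&RUN with 1 library per antibody and treatment. Each reaction held 1000000 human cells and 50000 mouse NIH-3T3 cells as spike-in. With 1 library per condition no comparison has a replicate check, so no p-value is given, and all intervals are exact 95% intervals that cover counting error only.

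SS18::SSX is the fusion oncoprotein of synovial sarcoma, in which a subunit of the SWI/SNF (BAF) chromatin-remodelling complex is joined to the tail of an SSX protein that binds nucleosomes bearing ubiquitylated histone H2A. WDR5 is a core subunit of the KMT2/MLL complexes that methylate histone H3 at lysine 4, and MS67 is a PROTAC that directs WDR5 to degradation. In CUT&RUN an antibody-tethered nuclease releases the bound DNA fragments, and a peak is a stretch where these fragments pile up above the local background.

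The sites differed widely in the DNA they cover, and 7 sequences are printed to show the kinds met below. Each spans 100 bp on either side of the peak summit and is read from the plus strand of hg38. In the first 4 the CpG dinucleotides are in capitals, and they stand for the strongest site, a site kept after MS67 near a developmental gene, a kept site near a chromosome end, and the first site of a dense run.
ZFP37 upstream site, chr9:113061162-113061362: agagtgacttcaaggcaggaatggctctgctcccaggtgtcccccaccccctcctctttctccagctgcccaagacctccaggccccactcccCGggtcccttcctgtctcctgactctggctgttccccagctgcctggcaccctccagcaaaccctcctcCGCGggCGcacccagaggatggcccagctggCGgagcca
SOX14 upstream site, chr3:137762479-137762679: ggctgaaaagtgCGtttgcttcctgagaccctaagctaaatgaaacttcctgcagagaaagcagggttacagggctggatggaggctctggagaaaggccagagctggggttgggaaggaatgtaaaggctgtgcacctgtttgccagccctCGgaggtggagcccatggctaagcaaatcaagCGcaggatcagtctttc
THEG downstream site, chr19:359622-359822: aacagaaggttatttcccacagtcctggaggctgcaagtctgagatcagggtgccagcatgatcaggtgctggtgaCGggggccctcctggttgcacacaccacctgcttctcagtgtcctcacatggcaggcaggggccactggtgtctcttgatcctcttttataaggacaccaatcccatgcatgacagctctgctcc
SOX8 downstream site, chr16:988685-988885: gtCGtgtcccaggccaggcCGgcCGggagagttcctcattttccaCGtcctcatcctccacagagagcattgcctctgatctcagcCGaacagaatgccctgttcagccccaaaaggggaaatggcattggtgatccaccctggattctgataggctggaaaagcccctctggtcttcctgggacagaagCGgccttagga
The other 3 are repeats. In the Y-chromosome site the pentamer GGAAT is in capitals, in the chromosome 17 site the CENP-B box (the motif of alpha satellite DNA that CENP-B binds), and in the chromosome 21 site a run of AC dinucleotides.
Y-chromosome site, chrY:56734695-56734895: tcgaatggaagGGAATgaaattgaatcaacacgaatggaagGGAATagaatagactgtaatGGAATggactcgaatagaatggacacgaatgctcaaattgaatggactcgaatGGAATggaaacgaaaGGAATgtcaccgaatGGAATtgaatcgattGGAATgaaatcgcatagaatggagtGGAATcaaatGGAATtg
Chromosome 17 centromeric site, chr17:24813779-24813979: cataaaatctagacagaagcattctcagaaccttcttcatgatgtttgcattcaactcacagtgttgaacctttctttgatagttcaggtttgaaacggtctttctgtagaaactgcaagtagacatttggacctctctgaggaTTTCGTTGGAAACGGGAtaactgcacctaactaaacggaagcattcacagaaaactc
Chromosome 21 site, chr21:5103683-5103883: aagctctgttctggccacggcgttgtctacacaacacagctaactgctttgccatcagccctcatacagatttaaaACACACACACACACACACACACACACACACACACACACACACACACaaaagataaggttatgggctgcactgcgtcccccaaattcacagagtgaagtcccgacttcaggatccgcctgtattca

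Most of the sites were GC-rich but poor in CpG. Over the length of the peak the median GC content was 58.4% (95% interval 58.0 to 58.9%), against 62.6% at the 1866 SS18::SSX promoter peaks without WDR5. Over 250 bp on either side of the summit, the ratio of observed to expected CpG had a median of 0.271 (0.264 to 0.277) at the intergenic sites and 0.601 at those promoter peaks. Only 183 intergenic sites (5.99%, 5.17 to 6.89%) met the composition of a CpG island, taken as GC above 50% with a CpG ratio above 0.6 in the same stretch around the summit, while 911 promoter peaks (48.8%) did. The 1119 intergenic SS18::SSX peaks that did overlap WDR5 were in between, with a median CpG ratio of 0.331 and island-like composition at 15.6%. The 5120 gene-body peaks without WDR5 were similar in medians, with GC of 58.8% and a CpG ratio of 0.300. Island-like composition was found at 13% of them. Over all SS18::SSX DMSO peaks the 3 values were 60.6%, 0.359 and 24.2%.

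**Figure D1:**
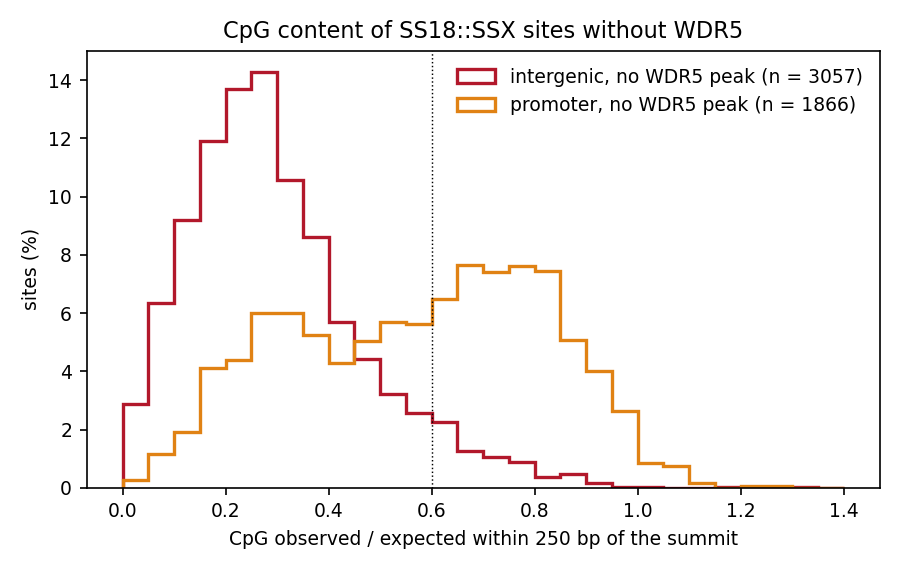
Distribution of the observed over expected CpG ratio within 250 bp of the summit, as percent of sites, for the 3057 intergenic sites (red) and the 1866 promoter peaks (orange), both without WDR5; the dotted line is at 0.6. The intergenic sites gather around their median of 0.271, while the promoter peaks spread over a second range above 0.6.

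The short sequences that transcription factors read were counted within 100 bp of the summit, on both strands, and set beside 5819783 windows of the same length that tile the intergenic genome. The GC box of SP and KLF factors (GGGCGG) was present at 344 sites (11.3%), in 2.09% of all intergenic windows and at 34.9% of promoter peaks without WDR5. Among the 1554 sites and the 642332 windows with a GC content between 51.2 and 63.2%, the shares were 8.43% and 8.34%. The surplus was thus not seen within this band. The median GC content was 57.7% at the sites and 39.3% in the intergenic windows. Sites and windows were not matched inside the band, so the band values here and below do not hold GC content equal. The homeodomain core TAATTA was found at 46 sites (1.5%) against 8.47% of all windows, and at 0.837% against 1.05% in the band. The CCAAT letters of NF-Y were present at 617 sites (20.2%) against 28.2% of all windows, and at 18.9% against 17.9% in the band. The AP-1 letters TGANTCA stood at 148 sites (4.84%) against 6.21% of all windows, and in the band at 4.83% against 4.56%. The TEAD letters GGAATG were present at 347 sites (11.4%) against 11.5% of all windows, and at 12% against 9.95% in the band. These letters overlap the satellite pentamer shown above. The E-box CACGTG of MYC-type factors was found at 128 sites (4.19%) against 1.74% of all windows, and at 4.44% against 3.48% in the band. The forkhead letters TGTTTAC stood at 24 sites (0.785%) against 3.10% of all windows, and at 0.901% against 1.58% in the band. The SOX letters ACAATGG were at 62 sites (2.03%) against 3.09% of all windows. In the band the order was reversed, at 2.06% against 1.88%. The ETS letters CCGGAAG stood at 48 sites (1.57%) against 0.371% of all windows, and at 1.42% against 1.09% in the band. The CRE (TGACGTCA) was found at 4 sites (0.131%) against 0.0594% of all windows. In the band it was at 1 site (0.0644%) against 0.123% of windows, too few sites to tell an order. The CTCF motif was found at 8 sites (0.262%) against 0.0653% of all windows, and at 0.322% against 0.195% in the band. The CENP-B box was found at 6 sites (0.196%) against 2.17% of all windows. In the band it was at 1 site (0.0644%) against 0.0142% of windows. A letter match is a description of the sequence and not of binding.

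The sites crowded toward the ends of the chromosomes. Within 5 Mb of an end lay 1400 sites (45.8%, 44 to 47.6%) on 6.10% of the intergenic sequence, which gives 19.6 sites per Mb of intergenic sequence there and 1.5 per Mb elsewhere, a ratio of 13. The density was 25.1 per Mb in the last 1 Mb, 38.6 per Mb between 1 and 2 Mb, 11.6 per Mb between 2 and 5 Mb and 2.46 per Mb between 5 and 10 Mb, and beyond 50 Mb it was 1.22 per Mb. Of the intergenic SS18::SSX peaks with WDR5, 35.7% (32.8 to 38.5%) lay within 5 Mb of an end, and of the promoter and gene-body peaks without WDR5 30.9% and 38.5%. By chromosome the densest were 22 with 5.88 sites per Mb, 20 with 5.81, 17 with 5.47 and 10 with 5.19, while the X chromosome held 28 sites or 0.331 per Mb.

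The local background, which the peak caller estimates from the fragments around a peak, moved with this position. It was a median of 18.9 times the genome-wide coverage at sites within 5 Mb of an end and 4.64 times at the others. The intergenic peaks of the other libraries moved the same way, with 7.61 against 3.43 times for WDR5 with DMSO, 6.20 against 3.47 times for WDR5 with MS67 and 18.1 against 8.84 times for SS18::SSX with MS67. Over all sites the background was raised to at least 2 times the coverage at 86.1% (84.8 to 87.3%). The share was 82.1% of all SS18::SSX DMSO peaks, 85% of gene-body peaks without WDR5 and 89.6% of intergenic peaks with WDR5. A raised background was thus common in the list and not particular to these sites. The part of this background in the density of sites was not tested.

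**Figure D2:**
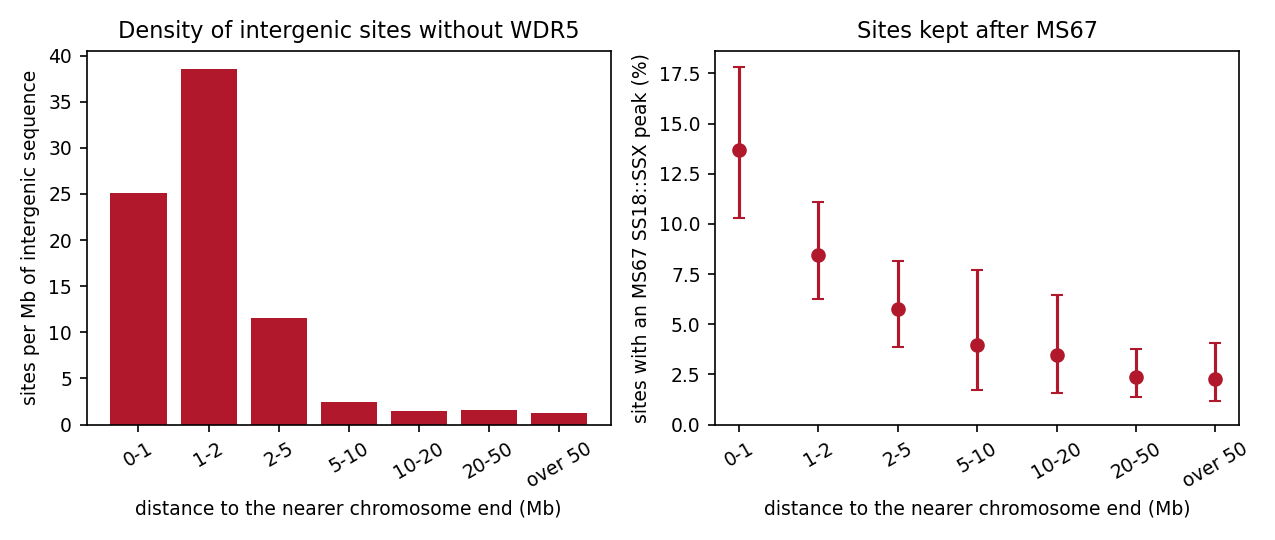
Left, intergenic SS18::SSX sites without WDR5 per Mb of intergenic sequence by distance to the nearer chromosome end. Right, percent of these sites with an SS18::SSX peak after MS67 (points) and exact 95% interval (bars). Density falls from 38.6 to 1.22 per Mb and the kept share from 13.7% in the last 1 Mb to 2.29% beyond 50 Mb.

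Chaining sites whose centres lay within 25 kb of the next gave 103 runs of 5 or more sites, which together held 1049 sites (34.3%). Of these 1049 sites 894 (85.2%) lay within 5 Mb of a chromosome end, against 184 (18.3%) of the 1003 sites that stood alone. The median GC content of the peaks was 62.7% in the runs and 54.2% at the lone sites, and the median background 23 and 3.07 times the coverage. The 5 runs with most sites flank genes of several kinds. The fullest, chr7:1185437-1421932, held 47 sites around UNCX, a homeobox gene of somite patterning. The next, chr16:988660-1151910, held 45 sites between SOX8, an SRY-box factor, and CACNA1H, a calcium channel subunit, and includes SSTR5, a somatostatin receptor. The third, chr7:267537-471826, held 42 sites next to FAM20C, a secretory pathway kinase, and FOXL3, a forkhead gene. The fourth was chr10:132976675-133082780 with 41 sites at ADGRA1-AS1 and LINC01168. The last was chr4:1450218-1569800 with 31 sites, whose nearest TSSs were those of ENSG00000244459, ENSG00000272783 and NKX1-1, a homeobox gene outside the span. WDR5 DMSO peaks numbered 27, 25 and 16 in the spans of the first 3 runs and 3 and 2 in the spans of the chromosome 10 and chromosome 4 runs, although no site itself overlaps one.

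Distances to the nearest TSS ran from 405 to 2131878 bp with a median of 17522 bp (16441 to 18842 bp). The centre was within 10 kb of a TSS at 1072 sites (35.1%) and more than 100 kb away at 447 (14.6%). The nearest TSS was that of a lncRNA gene at 1890 sites (61.8%) and of a protein-coding gene at 1167 (38.2%), and the site lay upstream of it in 1714 cases (56.1%). The intergenic peaks with WDR5 had a median distance of 18021 bp, whose interval (15760 to 19966 bp) overlaps that of the sites without WDR5. A gene of another type, mostly a pseudogene, covered the centre of 86 sites (2.81%).

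**Figure D3:**
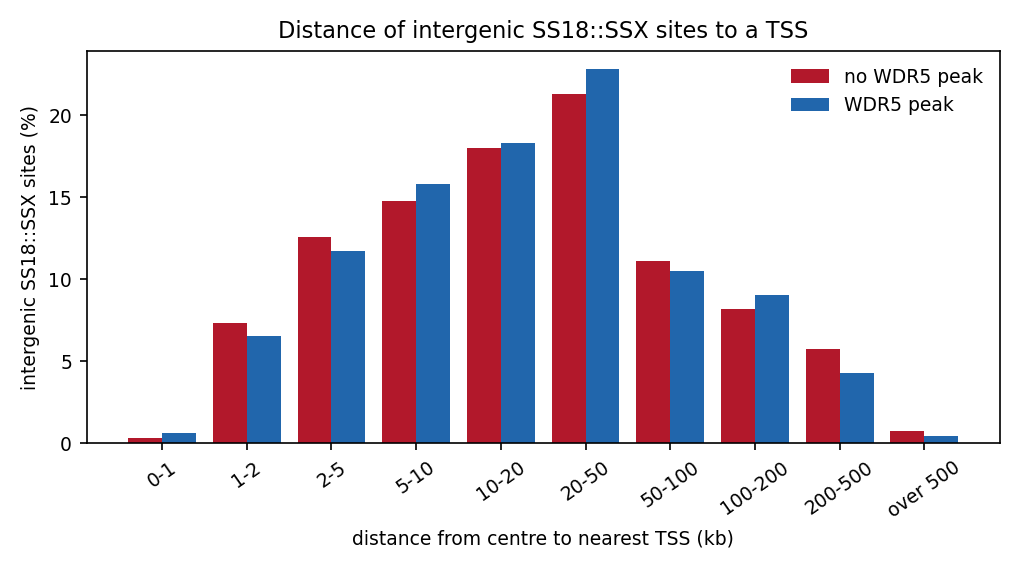
Distance from the peak centre to the nearest TSS, as percent of the 3057 intergenic SS18::SSX sites without WDR5 (red) and of the 1119 with WDR5 (blue). Both distributions peak between 20 and 50 kb and differ little across the bins.

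The 5 sites closest to a TSS lay downstream of it and past the end of the gene, the only place that the rule leaves at such distances. They were at ENSG00000276984 (405 bp), ENSG00000272783 (723 bp), the interferon-induced membrane protein gene IFITM1 (788 bp), the ATP synthase subunit gene ATP5F1D (846 bp) and APLP1 (860 bp), a relative of the amyloid precursor gene. The 5 farthest sites, from 1237787 to 2131878 bp away, were all in the centromeric region of chromosome 17, and the 32-mer at each summit occurred between 413 and 1591 times in hg38. Closest to the promoter limit was a site 1007 bp upstream of ENSG00000262786, and just past it a peak 998 bp upstream of GCGR, the glucagon receptor gene, was counted as a promoter. The centres of 122 sites were over 1000 and up to 1500 bp upstream of their TSS.

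The gap to the nearest WDR5 DMSO peak had a median of 3468 bp and was as small as 4 bp, with 802 sites (26.2%, 24.7 to 27.8%) having one within 1 kb and 2113 (69.1%) within 10 kb. No such gaps are given for other SS18::SSX peaks, so they are not shown to be particular to these sites. At the limit of the rule, 39 sites lay within 50 bp of a WDR5 peak, and 39 intergenic SS18::SSX peaks were left out for an overlap of at most 50 bp. One of those was a peak 10805 bp from GATA3, a zinc-finger transcription factor gene, which shared 1 bp with a WDR5 peak.

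Strength varied over a wide range. The summit held 5 to 135 fragments (median 20), the fold over background ran from 1.69 to 18.2 (median 3.73) and the −log10 q from 1.31 to 31.1 (median 3.74). The weakest site, at ENSG00000289158, had a −log10 q of 1.31 with 6 fragments. The site with the highest −log10 q, 31.1, was chr9:113061125-113061618, 4613 bp upstream of the zinc-finger gene ZFP37, with 43 fragments and a fold of 12.6. A neighbour 6335 bp upstream of ZFP37 had a −log10 q of 25.2, 37 fragments and a fold of 11.4. These are steep peaks, on a background of 4.61 and 4.29 times the coverage. The strongest NKX6-2 site was of the opposite kind. NKX6-2 is a homeobox gene of neural development, and 12729 bp upstream of it 130 fragments stood on a background of 82.9 times the coverage, with a fold of 2.86 and a −log10 q of 18.9.

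A fold of 8 or more was reached by 14 sites, whose median background was 1.24 times the coverage and which lay in few places: 3 upstream of ZFP37, 4 within the pseudogene PKD1P2 on chromosome 16, 2 in the centromeric region of chromosome 17, and single sites elsewhere. The highest fold, 18.2, belonged to chrY:56734668-56734927, whose nearest TSS is the pseudoautosomal copy of VAMP7 333067 bp away. Its 27 fragments lay on sequence made of GGAAT-like units, 9 of them exact in the stretch printed above. The summit 32-mer occurred more than once in hg38 at 135 sites (4.42%, 3.72 to 5.21%) and more than 10 times at 54 sites (1.77%). Over all 15141 SS18::SSX DMSO peaks the counts were 409 (2.70%) and 164. Of the gene-body peaks without WDR5, 3.26% (2.79 to 3.79%) had more than 1 copy, an interval that overlaps that of the sites. At such sites some reads may not be assignable to 1 place, but only the 32 bp at the summit were counted and mappability was not tested. Although the study removed non-primary alignments, a limit on mapping quality is not given in the sources used here.

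After MS67, 168 of the 3057 sites (5.50%, 4.71 to 6.36%) were overlapped by an SS18::SSX peak and 2889 were not. Over all 15141 SS18::SSX DMSO peaks the share was 5.81% (879 peaks), so the intergenic sites without WDR5 were near the whole list. The share was 4.77% (4.20 to 5.39%) for gene-body peaks without WDR5 and 3.32% (2.56 to 4.24%) for promoter peaks without WDR5. It was 12% (10.1 to 14.0%) for intergenic peaks with WDR5, an interval that does not overlap that of the sites without it. The median peak width was 270 bp with and 212 bp without WDR5. An overlap of 1 bp defined both the WDR5 groups and the kept peaks, and the part of width in this difference was not tested. Among peaks without raised background the shares were 1.41% (0.52 to 3.05%) of 425 sites without and 3.45% (0.947 to 8.59%) of 116 peaks with WDR5, and these intervals overlap. The 2 SS18::SSX lists differ in size, with 1175 peaks after MS67, while the genome-wide coverage after MS67 was 1.36 times that with DMSO. With DMSO 2813 of the 3057 sites reached the lowest −log10 p in the MS67 list, and 165 of these (5.87%) were kept. At the lost sites 171 (5.92%) had an MS67 peak within 1 kb and 672 (23.3%) within 10 kb. No such shares are given for lost peaks of the other groups.

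The share kept rose with the strength of the DMSO peak. In 5 classes of equal size of the whole list by −log10 q, it was 0.865% (5 of 578 sites), 1.33% (8 of 600), 3.61% (22 of 610), 4.49% (29 of 646) and 16.7% (104 of 623, 13.8 to 19.9%) from weakest to strongest. In the strongest class, 25.4% (20.9 to 30.2%) of the intergenic peaks with WDR5, 14.9% of the gene-body and 15.9% of the promoter peaks without WDR5 were kept. The intervals of the intergenic peaks with and without WDR5 did not overlap in that class, but they overlapped in every weaker one. In the next strongest they were 8.88% (5.43 to 13.5%) with and 4.49% (3.03 to 6.38%) without WDR5. In the weakest class the intergenic peaks with WDR5 were kept at 0.671%, and no difference was detectable at that number of peaks.

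**Figure D4:**
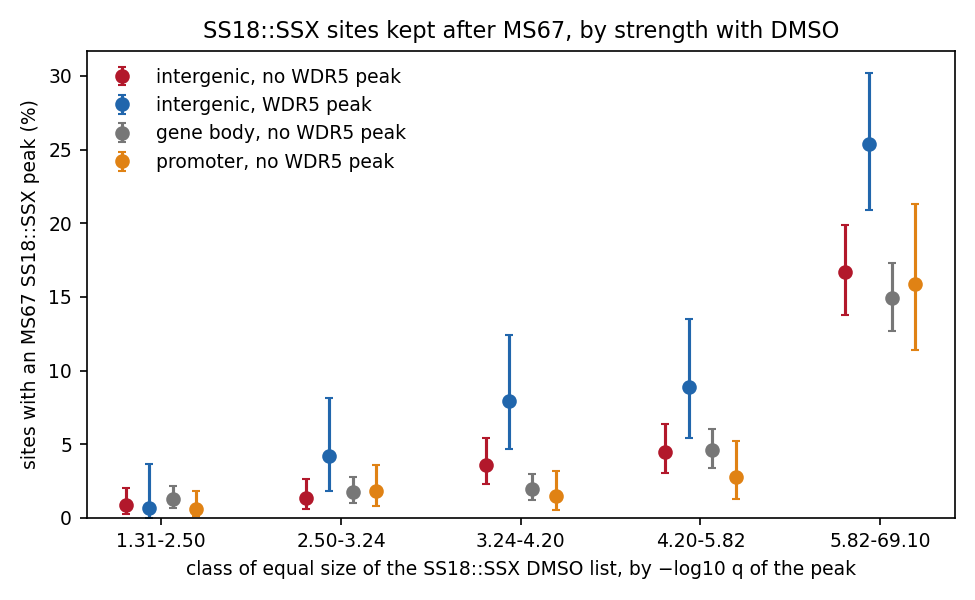
Percent of SS18::SSX DMSO peaks overlapped by an SS18::SSX peak after MS67 (points, exact 95% intervals as bars) in 5 classes of equal size of the DMSO list by −log10 q, for intergenic sites without WDR5 (red), intergenic peaks with WDR5 (blue), and gene-body (grey) and promoter (orange) peaks without WDR5. All 4 groups of peaks are highest in the strongest class, where the intergenic peaks with WDR5 reach 25.4% and the other 3 between 14.9 and 16.7%.

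Position moved with the share kept as well. Within 5 Mb of a chromosome end 123 of 1400 sites (8.79%, 7.35 to 10.4%) were kept and elsewhere 45 of 1657 (2.72%, 1.99 to 3.62%). In the strongest class of −log10 q the values were 84 of 375 (22.4%, 18.3 to 27.0%) and 20 of 248 (8.06%, 5 to 12.2%), with median −log10 q of 7.72 and 7.31 and median backgrounds of 25.6 and 8.56 times the coverage. The intervals overlapped in every weaker class. In the weakest the order turned, with 0.474% (1 of 211) near an end and 1.09% (4 of 367) elsewhere. In the runs of 5 or more, 104 of 1049 sites (9.91%, 8.17 to 11.9%) were kept against 33 of 1003 lone sites (3.29%, 2.28 to 4.59%), and 51 of the 103 runs kept at least 1 site. The UNCX run kept 5 of 47 sites, the SOX8 to CACNA1H run 3 of 45, the FAM20C and FOXL3 run 5 of 42, the ADGRA1-AS1 run 7 of 41 and the chromosome 4 run 5 of 31. Within 10 kb of a TSS 71 sites (6.62%) were kept, and beyond 100 kb 9 sites (2.01%, 0.925 to 3.79%).

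Kept and lost sites differed in several DMSO measures. The median summit pileup was 40 fragments at kept and 19 at lost sites, the median width 522 and 206 bp, the median background 21.2 and 7.75 times the coverage, and the median distance to a chromosome end 1728535 and 9268762 bp. The median fold over background was not higher at the kept sites, at 3.38 against 3.75. The GC content of the peaks was 61.1 and 58.2%, and the CpG ratio 0.295 and 0.270. A composition like that of a CpG island was found at 5 kept (2.98%) and 178 lost sites (6.16%).

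At the kept sites the summit pileup did not differ in median between treatments as counted, with 40 fragments in each library, and was lower after MS67 once divided by coverage. The 168 sites were met by 162 MS67 peaks. The median summit pileup, divided by the genome-wide coverage of its library, was 74.0 with DMSO and 54.3 with MS67. The ratio of MS67 to DMSO had a median of 0.750 (0.714 to 0.786) and was below 1 at 139 sites. The fold over local background, which does not use the genome-wide coverage as divisor, was 3.38 with DMSO and 2.76 with MS67, the ratio being below 1 at 140 sites, and the background itself was 21.2 and 19.0 times the coverage. For all 879 kept SS18::SSX peaks the median pileup ratio was 0.705. The pileup ratios rest on the coverage of each library, which was 1.36 times as high after MS67, and not the mouse spike-in, which peak lists do not carry. Both ratios divide by values of the DMSO library in which the sites were chosen as peaks. Every kept site also needed an MS67 peak. How far these choices set the ratios was not tested.

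**Figure D5:**
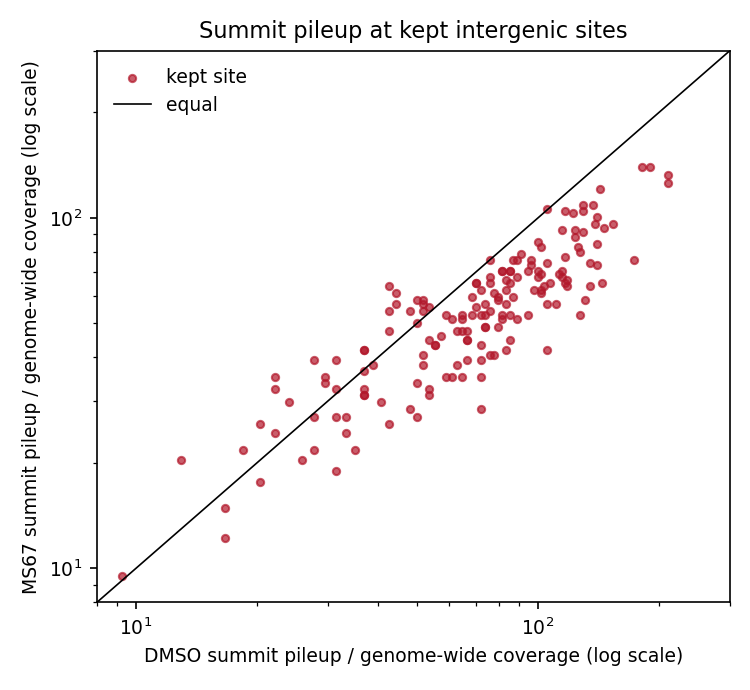
Summit pileup divided by genome-wide coverage with DMSO (x) and MS67 (y), both on log scales, for the 168 kept intergenic sites (points); the line marks equal values. Of the 168 points 139 lie below the line, and several of those above it are at low DMSO pileup.

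The best-kept sites were of unlike kinds. The MS67 peak of highest −log10 q, 25.2, was the chromosome 17 centromeric site printed above, where the pileup rose from 12 fragments with DMSO to 26 with MS67, a relative pileup ratio of 1.59. Its summit 32-mer has 478 copies in hg38. A second site of this region, chr17:24453731-24455676 with 413 copies, had 19 fragments with DMSO and 16 with MS67, a ratio of 0.618. The chromosome 21 site with the AC run, at ENSG00000289905, had 16 and 26 fragments and a ratio of 1.19.
The ZFP37 site was the second, with a −log10 q of 22.4 and 36 fragments after MS67 against 43 with DMSO, a ratio of 0.614. Its MS67 peak began and ended 1 bp from the DMSO peak, and it was the only 1 of the 168 kept sites whose 2 edges both lay within 2 bp; 11 had both within 50 bp. The neighbour 6335 bp upstream of ZFP37 had no MS67 peak.
Other sites had a summit 32-mer that occurs once in hg38. The site 14450 bp from the TSS of THEG, a testis-expressed gene, held 28 fragments with DMSO and 30 with MS67, a ratio of 0.786. The site 1099 bp upstream of TRIM28, the KAP1 co-repressor of zinc-finger proteins, had 11 fragments with DMSO and 19 with MS67, a ratio of 1.27, and its −log10 q was 3.22 and 10.7. At FRG2B, near the end of chromosome 10, 15 and 20 fragments gave a ratio of 0.978. At ENSG00000249966 on chromosome 5, 98 and 103 fragments gave 0.771, at ENSG00000256258 on chromosome 12, 36 and 33 gave 0.672, and at LINC00051 62 and 52 gave 0.615.

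Of the 10 sites of highest −log10 q with DMSO, 5 were kept and 5 lost. The kept ones were the ZFP37 site already described and those at ENSG00000285615 (73 fragments with DMSO, 55 with MS67, ratio 0.553), ENSG00000249966, ENSG00000250385 (94 and 56, 0.437) and TNFRSF4, the OX40 receptor gene (60 and 42, 0.514). The lost ones were the Y-chromosome site, the second ZFP37 site, 2 sites near NPIPA7 inside PKD1P2 (38 and 19 fragments with DMSO) and the NKX6-2 site with 130 fragments.

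Developmental transcription factor and signalling genes were the nearest gene at few of the sites. Genes were assigned by the nearest TSS, lncRNA genes included. A site beside a listed gene but closer to a lncRNA TSS is therefore not in these counts. Lists of 248 such genes had 103 sites (3.37%) at 41 genes, of which 5 were kept, against 425 (2.81%) of all SS18::SSX DMSO peaks, of which 28 were kept. The NKX homeobox genes had most, with 26 sites (0.851% of the sites, 0.330% of all peaks), 12 at NKX6-2 and 11 at NKX1-1. Of the NKX6-2 sites 2 were kept, and the stronger, 3740 bp upstream, had 114 fragments with DMSO and 98 with MS67, a ratio of 0.631. In the chromosome 4 run, which lies beside NKX1-1, a site 723 bp from the TSS of ENSG00000272783 was kept. It held 71 fragments with DMSO and 43 with MS67 (ratio 0.444).
The PAX genes had 12 sites (0.393%, and 0.390% of all peaks), 9 of them 23169 to 82613 bp from PAX2, and the forkhead genes had 12 (0.393 and 0.271%), of which 4 at FOXB2 and 3 at FOXL1. The FGF list had 11 sites (0.360 and 0.185%), 8 of them at FGFR3, a receptor tyrosine kinase. The engrailed, MNX and GBX genes had 6 (0.196 and 0.106%), and EN1, an engrailed homeobox gene, had 5 of these, from 1746 to 10564 bp away with a highest −log10 q of 7.80. The SOX genes had 8 sites (0.262 and 0.225%), 4 of them at SOX14, and the kept one, 1868 bp upstream and printed above, held 43 fragments with either treatment, a relative ratio of 0.734. The Iroquois homeobox genes had 5 (0.164 and 0.0859%), and of 3 at IRX4 the one 9502 bp away was kept with 54 and 63 fragments and a ratio of 0.856. The remaining kept site of the lists was the single one at FGF3, a fibroblast growth factor gene.
HOX genes had 4 sites (0.131 and 0.231%), among them those 1206 bp upstream of HOXD12 (35 fragments, −log10 q 6.38) and 1330 bp upstream of HOXD13 (30 fragments, 5.23). LIM homeobox genes had 9 (0.294 and 0.225%), with the strongest at ISL2 (−log10 q 9.49). Shares below those of all peaks were found for WNT and Frizzled genes with 4 sites (0.131 and 0.390%), T-box genes with 3 (0.0981 and 0.165%) and the TLE co-repressor genes with 1, at TLE1 (0.0327 and 0.0727%). The sine oculis-type homeobox and EYA genes were nearest to 0 of the sites and to 12 of all peaks. Of 4 target genes shown in the study, SOX8 and SIM2 were the nearest gene at 2 intergenic sites without WDR5 each, and MNX1 and NTSR1 at none. The stronger SOX8 site held 66 fragments with a −log10 q of 9.12 and the stronger SIM2 site 44 fragments with 5.45, and the 4 sites had no MS67 peak, a number too small to set against the 5.50% of all sites.

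After MS67 a WDR5 peak overlapped 77 of the 3057 sites (2.52%, 1.99 to 3.14%), against 11.2% of all SS18::SSX DMSO peaks and 22.6% of the intergenic peaks with WDR5. Sites were required to lack WDR5 with DMSO, so a low share follows in part from the rule. Among other peaks without WDR5 the share was 2.58% (2.16 to 3.05%) in gene bodies and 7.72% (6.55 to 9.02%) at promoters. The intergenic sites were thus near the gene-body peaks. Of the 77, 32 (41.6%) had a WDR5 DMSO peak within 1 kb and 6 also kept SS18::SSX. Their WDR5 peaks had a median of 10 fragments against 8 over the WDR5 MS67 list, and a median −log10 q of 3.13 against 3.38. The strongest was at chr7:157045233-157046030 near ENSG00000236102, with 23 WDR5 fragments and a WDR5 DMSO peak 606 bp away. Another, 21987 bp downstream of PCDH19, a protocadherin gene, had 12 fragments, and its nearest WDR5 DMSO peak was 7317 bp away.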

How the data were processed

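SS18::SSX and WDR5 CUT&RUN libraries from HSSY II cells treated with DMSO or MS67 were used, 1 library each. Per the labels and the study's methods, the authors aligned the reads with Bowtie2, removed non-primary alignments (SAMtools, version 1.9 in the submitters' processing notes) and duplicates (Picard), and called narrow peaks per library with MACS2 on hg38. A control library and the options of the call are not given in the sources used here. The SS18::SSX reactions also held an anti-GFP antibody for the spike-in cells. The deposited lists give per peak a fold enrichment (ratio) over local background, −log10 p and −log10 q values, a display score derived from the q-value, and the summit offset. From fold and −log10 p the whole-number pileup at the summit and the local background were solved (every peak within 0.001 in −log10 p), and the lowest background of a list was taken as its genome-wide coverage, which was 0.541 (SS18::SSX, DMSO), 0.737 (SS18::SSX, MS67), 0.368 (WDR5, DMSO) and 0.168 (WDR5, MS67) fragments per bp. The lists held 15141, 1175, 35605 and 14123 peaks. An overlap of 1 bp counted as shared. Shares carry exact Clopper-Pearson and medians order-statistic intervals. Gene positions, 194269 distinct TSSs of 38899 genes and sequences came from GENCODE release 44 and hg38, without repeat annotation. Scripts ran in Python 3.11.15 with numpy 2.4.6, scipy 1.17.1 and pandas 2.3.3, and the pileup recovery and overlaps were tested on simulated data. The members, gene lists and motifs were chosen with earlier results of these data known. Named are the 10 sites of highest −log10 q with DMSO, the 10 with the highest MS67 peak, the 5 nearest to and 5 farthest from a TSS, the 5 largest runs, up to 3 sites per gene list and those at the rule's limits. The sites of fold 8 or more, the edge comparison, the counts per gene within lists and the WDR5 MS67 examples were chosen after their values were seen. Alternatives covered stricter peaks, overlap, padding, background, TSS sets and chromosome ends.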

Additional observations from a re-analysis of the deposited data

Results flagged for a closer look

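A WDR5 peak after MS67 was present at 2.52% of the intergenic SS18::SSX sites without WDR5 with DMSO (77 of 3057, 1.99 to 3.14%). It drew attention because the WDR5 MS67 library takes no part in choosing the sites and holds peaks where the DMSO library has none. The share was 2.58% at gene-body and 7.72% at promoter peaks without WDR5, so it was not particular to the intergenic sites. No cause was tested, and no replicate was used.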

How the results depend on the processing

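Of 53 alternatives over 9 results, 21 stayed within the limits set and 32 moved, none in direction. Requiring a −log10 q above 3 and a fold above 3 with DMSO left 1520 sites, of which 7.37% were kept (15.2% of the intergenic peaks with WDR5, 5.80% of the gene-body peaks without), with a median TSS distance of 21900 bp, GC of 56.5%, a WDR5 MS67 share of 3.49% and a raised background at 90.2%. Leaving out sites of raised background left 425, with 1.41% kept, against 3.45% with WDR5, 0.522% in gene bodies and 0.359% at promoters, a TSS distance of 31396 bp, GC of 55.0% and a WDR5 MS67 share of 1.88%. There the intervals of the intergenic peaks with and without WDR5 overlapped, which they did not in the whole set. Without the last 5 Mb of each chromosome the shares kept were 2.72%, 8.33%, 2.16% and 1.71% in the same order, and with MS67 peaks padded by 1 kb they were 11.1%, 18.2%, 8.96% and 6.27%. The share kept was 2.57% with both lists strict and 3.17% at an overlap of 50%. A WDR5 MS67 peak within 1 kb was found at 8.93%. The median TSS distance was 19348 bp with 1 TSS per gene and 46842 bp with protein-coding genes only, the median GC 57.7% within 100 bp of the summit in place of the whole peak, and the raised background 90.8% and 78.6% at limits of 1.5 and 3 times. Fewer peaks, fewer TSSs and wider peaks follow from these constructions, and otherwise the cause was not tested. Padding WDR5 peaks by 1 kb left 2255 sites, strict WDR5 peaks gave 3978, and the basic TSS set, added after seeing the data as were the chromosome-end and copy-number settings, gave 3079. The share kept was 5.48% at sites whose summit 32-mer occurs once in hg38. No paired analysis was possible because each group had 1 library. Weak peaks, of which the lowest held 5 fragments, limit what the depth can show.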
